A study of Mus musculus with 14 samples.

Results

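Myelin genes encode the proteins and the lipid enzyme with which oligodendrocytes build the sheath around axons. The set described here held 9 of the 23412 genes in the count table, chosen by name: Mbp, Mog, Mag, Cnp, Mobp, Mal, Cldn11, Opalin and Ugt8a. Their counts came from the cerebral cortex of control mice and of mice without Fmr1, which encodes FMRP, a protein that binds mRNA and polyribosomes, and the series title asks about translation elongation. Control mice were Rpl22flox/flox;CamKCre+ and knock-out (KO) mice were Fmr1X-Y; Rpl22flox/flox;CamKCre+, so both genotypes carried the floxed Rpl22 allele and the Cre, and the only labelled difference was Fmr1. CamK-driven Cre acts in excitatory neurons, and the protocols name no immunoprecipitation of tagged ribosomes, so RNA and ribosomes of all cortical cells, oligodendrocytes included, were sampled. For RNA-seq, controls were mice 1, 3, 6 and 8 (n = 4) and KO animals were mice 2, 4, 5 and 7 (n = 4). For ribosome profiling, controls were mice 1, 3 and 9 (n = 3) and KO animals were mice 2, 4 and 10 (n = 3). The age of the mice is not given in the sources used here.

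Oligodendrocytes wrap axons in many layers of membrane, which insulate the axon and speed conduction. Mbp (myelin basic protein) and Mobp lie between the cytoplasmic faces of compact myelin, Cnp keeps cytoplasmic channels open within it, Mag faces the axon and Mog lies on the outermost surface. Mal is a tetraspan protein of lipid rafts, Cldn11 forms the tight junctions of the sheath, Opalin is a glycoprotein of the oligodendrocyte membrane, and Ugt8a makes galactosylceramide, the main glycolipid of myelin. Some myelin mRNAs, Mbp and Mobp among them, are carried into the processes and translated near the sheath. In bulk cortex, fewer oligodendrocytes and less myelin mRNA per oligodendrocyte cannot be told apart.

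SOX10, a transcription factor that drives the terminal differentiation of oligodendrocytes and activates myelin genes, binds a short SOX core motif, and its own gene is among those measured below. RefSeq (GRCm38.p6) had promoters for 8 of the 9 members, all but Mbp. The motif ACAAAG or its reverse complement CTTTGT was searched on both strands in the 250 bases before each start site, and 4 of the 8 genes held it at any start site, against 18.6% of 27025 genes. Counted by promoter, 16.5% of 32851 held it. Mobp is shown because it held 6 copies, the most in any promoter searched; only 0.137% of promoters held 3 or more. Cnp, with 1 copy, and Mal, with none, are shown beside it because their footprints moved in opposite directions below. Capitals mark the motif, and each sequence runs 5′ to 3′ on the strand of its gene. Mobp lies on the plus strand at chr9:120149492-120149741, Cnp on the plus strand at chr11:100574689-100574938 and Mal on the minus strand at chr2:127656696-127656945.
Mobp: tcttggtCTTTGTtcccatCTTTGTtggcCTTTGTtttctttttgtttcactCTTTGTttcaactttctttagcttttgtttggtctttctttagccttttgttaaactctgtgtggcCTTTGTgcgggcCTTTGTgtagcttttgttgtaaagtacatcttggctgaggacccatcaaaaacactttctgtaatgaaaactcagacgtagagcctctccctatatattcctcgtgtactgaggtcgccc
Cnp: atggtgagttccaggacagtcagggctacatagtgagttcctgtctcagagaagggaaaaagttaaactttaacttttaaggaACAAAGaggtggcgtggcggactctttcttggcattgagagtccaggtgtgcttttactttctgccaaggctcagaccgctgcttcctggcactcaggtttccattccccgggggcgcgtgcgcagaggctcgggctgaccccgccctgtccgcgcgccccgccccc
Mal: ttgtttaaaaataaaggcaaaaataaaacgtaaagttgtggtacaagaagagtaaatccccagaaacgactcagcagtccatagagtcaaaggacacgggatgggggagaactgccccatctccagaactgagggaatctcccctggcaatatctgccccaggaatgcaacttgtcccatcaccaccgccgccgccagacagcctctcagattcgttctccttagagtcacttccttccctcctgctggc
A match describes the letters of the window only.

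Total counts were 8847547 to 11371851 in RNA libraries and 4124065 to 6033030 in footprint libraries, footprints being the mRNA fragments that ribosomes shield from nuclease. Levels are given as CPM, counts divided by the TMM-scaled size of their library and put on one common scale. Fmr1 was at 26.1% of the control level in KO RNA and 6.56% in KO footprints. A pair of RNA libraries stood apart: the summed CPM of 5 choroid plexus markers was 281 in control mouse 8 and 119.6 in KO mouse 5, against 6.53 to 20.02 in the others, and Ttr made up most of it in both. The RNA libraries of KO mice 2, 4 and 7 differed from each other by 1.18 to 1.32 times sampling noise (chi-square divided by its degrees of freedom), against 1.99 to 11.8 between control RNA libraries and 5.64 to 6.02 between KO mouse 5 and the others. Labels give them separate mouse numbers, so they were counted as 3 mice. The number of members called in RNA is also given below with them summed. Footprint libraries of the same genotype were about as alike, at 1.152 to 1.423 times sampling noise over 6 pairs. They too were counted as separate mice.

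**Figure D1:**
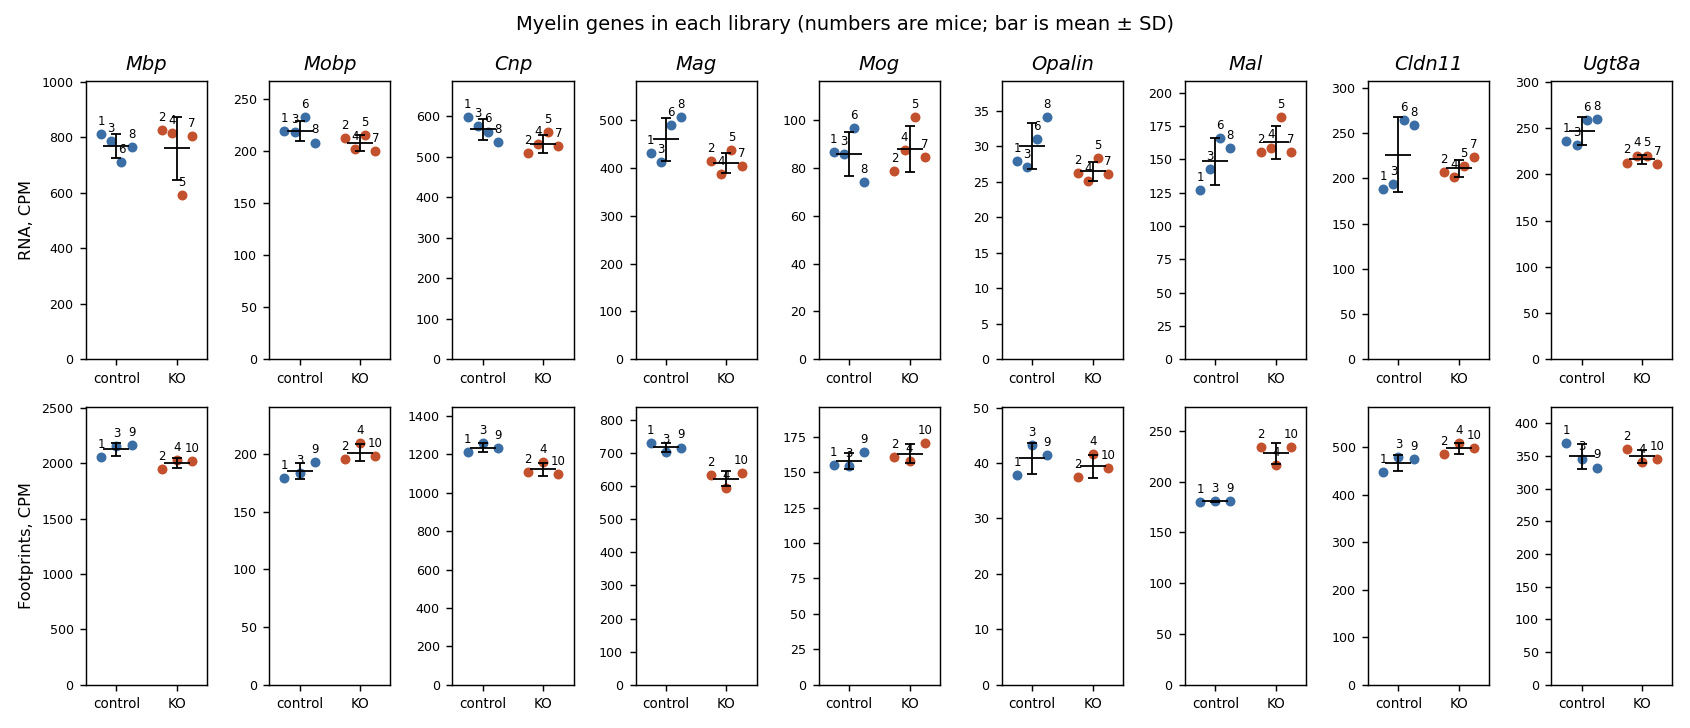
CPM of the 9 myelin genes in each RNA and footprint library, by genotype. Each point is 1 mouse. KO footprints of Mal, Mobp and Cldn11 lie above every control library and those of Mbp, Mag and Cnp below every control library, while RNA separates only for Ugt8a.

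The steady amount of myelin mRNA was compared first. In RNA, 1 of the 9 genes was called at an adjusted p under 0.05 (edgeR quasi-likelihood test) and lower in KO, where 7.51% of all 13507 genes tested were called (3.58% higher and 3.94% lower), and 3 had an unadjusted p under 0.05. Log2 fold changes, KO over control, were negative for 7 of the 9 and ran from -0.19 to 0.13. Their median was -0.097, against -0.0010 over all genes tested. Summed over the 9 genes, RNA was at 2674 to 2815 CPM in control libraries and 2549.9 to 2643 CPM in KO libraries, so the sums did not overlap. The mean log2 CPM of the 9 genes, which weights them equally, did overlap: KO mouse 5 was at 7.72, above control mice 1 (7.69) and 3 (7.68). The low sum of KO mouse 5 went with its low Mbp.

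Ugt8a, the galactolipid enzyme, was the gene called. Its RNA was at 236, 232, 259 and 260.3 CPM in control mice 1, 3, 6 and 8 and at 213, 220.3, 220.3 and 211 CPM in KO mice 2, 4, 5 and 7. Every KO library was below every control library, which held for 7.97% of all genes tested; 7.1% had every KO library above, 15.1% in all. The fold change was -0.19 ± 0.055 (log2, SE; adjusted p = 0.0499, edgeR). The call was kept in 6 of 20 alternatives, and with KO mice 2, 4 and 7 summed no member was called.

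Mbp RNA was at 812, 786, 712 and 766 CPM in control mice 1, 3, 6 and 8. In KO mice 2, 4, 5 and 7 it was at 826, 817, 592 and 806 CPM. KO mouse 5 alone was below all controls, and the other KO libraries were near the highest control library. The fold change was -0.015 ± 0.089 (log2, SE; adjusted p = 0.940, edgeR), and 0.090 without KO mouse 5 (adjusted p = 0.265).

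Cldn11 RNA split the controls rather than the genotypes. It was at 188 and 193 CPM in control mice 1 and 3 and at 265 and 259 CPM in control mice 6 and 8, while the KO libraries lay between, at 202 to 223 CPM. Its fold change was -0.10 ± 0.099 (log2, SE; adjusted p = 0.588, edgeR). Mal RNA was likewise lower in control mice 1 and 3, at 127 and 142 CPM, than in control mice 6 and 8, at 166 and 159 CPM. KO mice 2, 4, 5 and 7 had 155, 159, 182 and 155 CPM of Mal, overlapping the controls, and the fold change was 0.13 ± 0.081 (log2, SE; adjusted p = 0.360, edgeR).

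Titles of the RNA libraries share a prefix within mice 1 and 2, within mice 3 and 4, and within mice 5 to 8, so the genotypes were also compared within mice 1 to 4 and within mice 5 to 8. The KO arm of the first set was mice 2 and 4, with a pair of nearly identical libraries, so its spread between KO mice is small. In mice 1 to 4, where 24.2% of all genes were called, Cnp was lower (log2 fold change -0.17, adjusted p = 0.000993, edgeR) and Mal higher (0.23, adjusted p = 0.00314). In mice 5 to 8, where 0.423% of genes were called, no member was: Cnp was at -0.016 and Mal at 0.051. Cldn11 was at 0.10 in the first set and -0.26 in the second, with neither called. The difference between the sets was not tested.

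Some markers of other cells and regions moved with genotype in the same RNA, where 7.51% of all genes were called. The summed CPM of 6 hypothalamic neuropeptide genes was 34.4 to 65.3 in controls and 14.99 to 21.2 in KO, with 3 of the 5 tested called lower, and Hcrt had 0 counts in KO mouse 5. In footprints all 5 tested were called lower. The summed CPM of 8 excitatory neuron markers was 2304 to 2650 in control RNA and 2863 to 3185 in KO RNA, with 2 of the 8, Camk2a and Slc17a7, called higher and 3 of the 8 at negative fold changes. In footprints the same sum went the other way, 4609 to 4700 in controls and 4346 to 4480 in KO. Of the 8, 2 were called higher and 1, Camk2a, lower. Mean Camk2a footprints fell from 3155 to 2860 CPM, by more than the mean sum, which fell from 4652 to 4413 CPM. Camk2a thus accounted for the lower sum, and 4 of the 8 markers were at positive fold changes. Of 8 astrocyte markers, Gfap (-0.47, adjusted p = 0.000317, edgeR) and Aqp4 (-0.46, adjusted p = 0.00142) were called lower in RNA, while 4 of the 8 were at positive values, Sox9 highest (0.47, adjusted p = 0.0764), and the list's sum overlapped, at 3686 to 4100 CPM in controls and 3832 to 4649 CPM in KO. In footprints 4 of the 8 astrocyte markers were called, 2 higher and 2 lower. Sox9 (0.26, adjusted p = 0.00755, edgeR) and Slc1a2 (0.056, adjusted p = 0.0125) were called higher. Gfap (-0.34, adjusted p = 2.51e-09, edgeR) and Gja1 (-0.28, adjusted p = 8.83e-11) were called lower. Aqp4 was not called (-0.0062, adjusted p = 0.944). Of 8 microglia markers, 7 were at negative values and C1qb was called lower (-0.45, adjusted p = 0.0102, edgeR). Of 8 inhibitory neuron markers, Slc32a1 was called higher (0.56, adjusted p = 0.000360, edgeR) and Pvalb lower (-0.35, adjusted p = 0.0120), with 5 of the 8 at positive values. In footprints 4 of these 8 were called higher and 1 lower, Pvalb among the higher (0.20, adjusted p = 0.0179, edgeR) and Slc32a1 not called (-0.0085), and the list's sum was 1808 to 1867 CPM in controls and 1955 to 1992 CPM in KO. None of 7 endothelial and 6 striatal markers was called in RNA, where 0 and 1 had an unadjusted p under 0.05. In footprints 1 of the 8 microglia markers, C1qb, was called lower. Also called in footprints were 3 of the 7 endothelial markers (2 higher, 1 lower) and 4 of the 6 striatal markers (3 higher, 1 lower). Over all genes, 25.7% were called in footprints. Ttr footprints, of the choroid plexus list, were called lower (-1.75, adjusted p = 0.000451, edgeR). Their part in the myelin values was not tested. Without KO mouse 5 and control mouse 8, the libraries with choroid plexus RNA, Ugt8a (-0.17, adjusted p = 0.0184, edgeR) and Cnp (-0.15, adjusted p = 0.0149) were called lower, where 22.6% of all genes were called, so 2 of 9 is near the share over all genes.

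Of the other members, Mag and Opalin RNA were lower in KO with an unadjusted p under 0.05 but missed the threshold. Mag, the adhesion molecule facing the axon, was at 412 to 507 CPM in controls and 388 to 438 CPM in KO, a fold change of -0.16 ± 0.069 (log2, SE; adjusted p = 0.165, edgeR). Opalin was at 27.0 to 34.1 CPM in controls and 25.2 to 28.4 CPM in KO (-0.19 ± 0.087, adjusted p = 0.208, edgeR). Mog (0.034), Cnp (-0.097) and Mobp (-0.081) overlapped between the genotypes too.

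**Figure D2:**
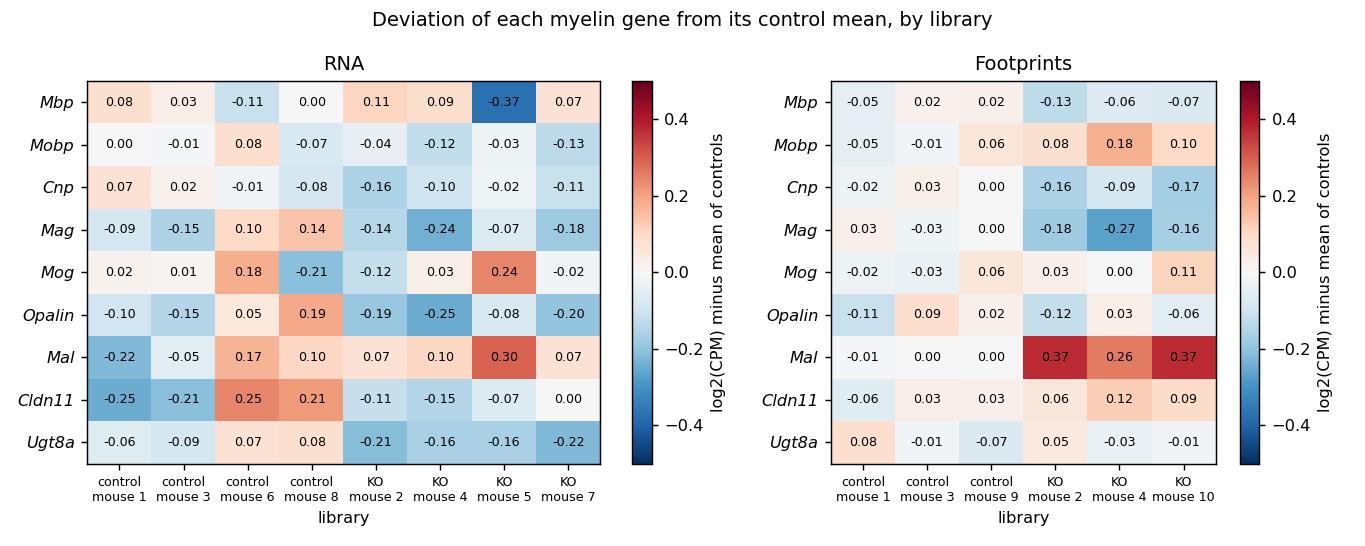
Log2 CPM of each member in each library minus the mean of that gene over the control libraries of the same assay. Mbp in the RNA of KO mouse 5 is the lowest RNA value of that gene, and Mal footprints are raised in all 3 KO libraries.

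Ribosome footprints were compared next. Of the 9 genes, 6 were called, 3 higher and 3 lower in KO (edgeR quasi-likelihood test), where 25.7% of all 12158 genes tested were called, 12% higher and 13.7% lower. The same 6 genes did not overlap between genotypes, as was so for 37.3% of all genes tested (18.1% with KO above and 19.2% below). Their median log2 fold change over all 9 was 0.0040, against 0.0061 over all genes. Changes were small: the called genes lay between -0.20 and 0.34 on the log2 scale. The p-values of these calls rest on a spread between mice of the same genotype that was close to sampling noise, as given above. Fitted together with the RNA libraries, only Mal and Mag were called.

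Mal rose most. Its footprints were at 179.8, 181 and 181 CPM in control mice 1, 3 and 9 and at 234, 216 and 234 CPM in KO mice 2, 4 and 10. The gap between the groups was wider than the spread within either, and the fold change was 0.34 ± 0.043 (log2, SE, adjusted p = 3.22e-10, edgeR). The call was kept in all 12 alternatives.

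Mag fell most. Control mice 1, 3 and 9 had 730, 703 and 716 CPM and KO mice 2, 4 and 10 had 633, 595 and 639 CPM. The fold change was -0.20 ± 0.028 (log2, SE; adjusted p = 3.06e-09, edgeR), and it too was called in all 12 alternatives.

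Cnp, an enzyme that binds the cytoskeleton of the oligodendrocyte, and Mbp also fell. Cnp footprints were at 1213, 1258 and 1231 CPM in control mice 1, 3 and 9 and at 1108, 1160.3 and 1098 CPM in KO mice 2, 4 and 10 (log2 fold change -0.14 ± 0.023, SE; adjusted p = 8.36e-07, edgeR). Mbp footprints were at 2059, 2154 and 2161 CPM in the controls and 1946, 2032 and 2021 CPM in KO. Its highest KO library came close to its lowest control library, and the fold change was -0.088 ± 0.020 (log2, SE; adjusted p = 0.000413, edgeR). On plain library sizes, without TMM scaling, the Mbp call was lost (-0.029, adjusted p = 0.307, edgeR).

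Mobp and Cldn11 rose by less. Mobp footprints were at 179, 184 and 193 CPM in control mice 1, 3 and 9 and at 196, 209.6 and 198 CPM in KO mice 2, 4 and 10 (log2 fold change 0.12 ± 0.044, SE; adjusted p = 0.0395, edgeR). Cldn11 footprints were at 448, 478 and 476 CPM in the controls and 485, 508 and 498 CPM in KO (0.086 ± 0.031, SE; adjusted p = 0.0262, edgeR). Both groups were separated by only a few CPM, and both calls were lost with DESeq2 and without control mouse 1, KO mouse 4 or KO mouse 10. The Mobp call was also lost without control mouse 3 and with no filter on low counts, and was kept in 5 of 12 alternatives.

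Mog, Opalin and Ugt8a footprints overlapped between the genotypes. Ugt8a, the gene called in RNA, was at 370, 346 and 332 CPM in control mice 1, 3 and 9 and at 361, 341 and 346 CPM in KO mice 2, 4 and 10 (log2 fold change 0.0040 ± 0.035, SE; adjusted p = 0.950, edgeR). Mog differed by 0.046 and Opalin by -0.059 on the log2 scale.

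**Figure D3:**
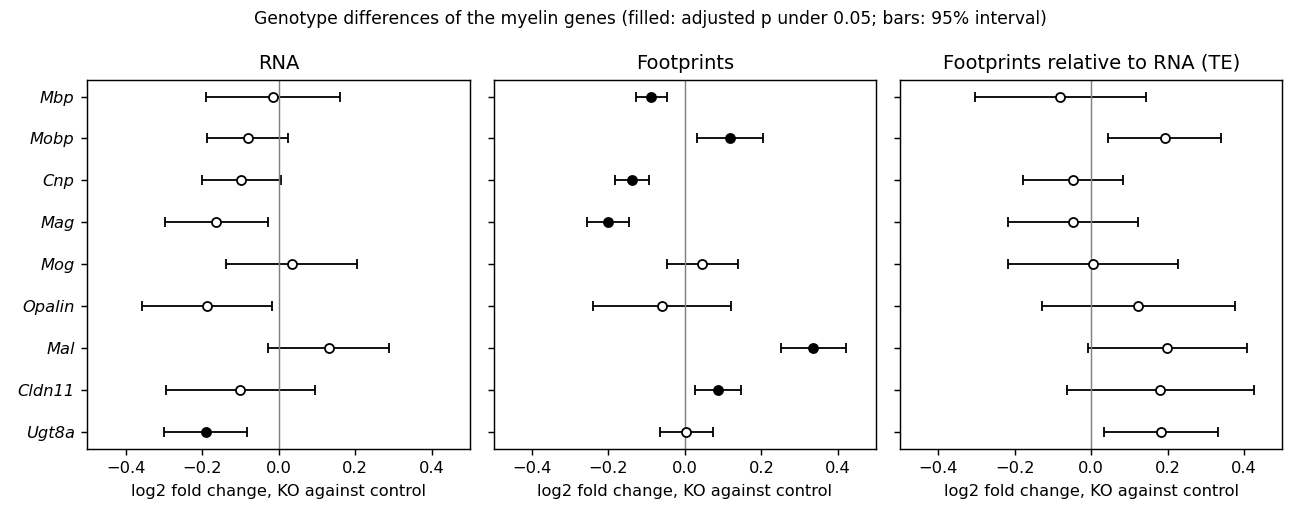
Log2 fold change, KO over control, of each member in RNA, footprints and translational efficiency, with 95% intervals. Intervals in footprints are narrow and lie clear of 0 for 6 genes, while those of RNA and translational efficiency mostly cross 0.

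Translational efficiency (TE) is the footprint level of a gene relative to its RNA level, tested as the interaction of genotype and assay over all 14 libraries. None of the 9 genes was called (edgeR quasi-likelihood test), where 7.44% of all 12145 genes tested were (3.22% higher and 4.22% lower), and 2 had an unadjusted p under 0.05. DESeq2 also called none, and plain library sizes called 2, Mobp (0.26, adjusted p = 0.0321) and Ugt8a (0.25, adjusted p = 0.0447). Differences were 0.19 ± 0.076 for Mobp (log2, SE; adjusted p = 0.128, edgeR), 0.20 ± 0.11 for Mal (adjusted p = 0.282) and 0.18 ± 0.076 for Ugt8a (adjusted p = 0.150). The 95% interval of Mal thus included 0, although its footprints had risen.

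Mice 1 to 4 gave both an RNA and a footprint library, so the same animal could be used as a block. In that fit 3 of the 9 genes were called, where 15.4% of all 12185 genes tested were: Mbp (log2 TE difference -0.14, adjusted p = 0.0312, edgeR), Mag (-0.16, adjusted p = 0.0274) and Mobp (0.22, adjusted p = 0.0227). The log2 ratio of footprint to RNA CPM of Mag was 0.76 and 0.77 in control mice 1 and 3 and 0.61 and 0.62 in KO mice 2 and 4. That of Mobp was -0.29 and -0.25 in the controls and -0.12 and 0.056 in KO, and that of Mbp 1.34 and 1.45 against 1.24 and 1.32. In mice 1 to 4 the KO ratios of Mog, which was not called, also lay on one side of the control ratios. With so few mice per genotype, such separation is easily reached by chance. The share of all genes that showed it was not counted.

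Within controls, the members differed widely in how much footprint they had per RNA. The ratio of footprint to RNA CPM, in which gene length cancels where the same region was counted, was 2.76 for Mbp, above 97.7% of 12145 genes. Cnp had 2.17, Cldn11 2.07, Mog 1.84, Mag 1.55, Ugt8a 1.42, Opalin 1.36 and Mal 1.22. These values set RNA of 4 control mice against footprints of 3. In mice 1 and 3, which gave both assays, Cldn11 (log2 ratios 1.25 and 1.31) was above Cnp (1.02 and 1.13), so the order of these neighbours depends on the mice used. Mobp had 0.844, the only one below 1, with 44.9% of genes under it.

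Each RNA library was also deposited as counts with exon in the column header, and the columns used here held 52.9% to 56.7% of those totals. For Mal they held 15.6% of the exon count in controls and for Mag 71.6%. For Cnp the share was 50.7% ± 0.749 (SD, n = 4) in controls and 54.4% ± 0.961 (SD, n = 4) in KO, and for Mag 71.6% ± 2.30 against 75.2% ± 0.962. Neither overlapped between genotypes, at the smallest p this design can give (exact two-sided permutation test, p = 0.0286, and 0.129 after Benjamini-Hochberg adjustment over the 9 genes). Of 13485 genes, 3.8% had a higher share in every KO library than in every control library. In the exon columns Cnp was the 1 member called (log2 fold change -0.18, adjusted p = 0.0312, edgeR), where 8.64% of 14566 genes were called, and Ugt8a was not (-0.16, adjusted p = 0.100).

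The other genes of the lineage were taken from general lists. Shares called over all genes were 7.51% in RNA, 25.7% in footprints and 7.44% in TE. Of 32 other myelin and mature oligodendrocyte genes, RNA of 6 was called, all lower in KO, with a list median of -0.12. That count ran from 0 to 10 over 20 alternatives. In footprints 6 were called higher and 5 lower, with a median of 0.028, and in TE 2 higher and 1 lower.

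The RNA calls of the list included Ppp1r14a (-0.59, adjusted p = 0.0143, edgeR), Gjc3, a glial connexin (-0.39, adjusted p = 0.0207), and Bcas1, a marker of newly forming myelin (-0.42, adjusted p = 0.0175). All 3 fell in footprints as well. In the exon columns the Gjc3 call was lost (-0.14, adjusted p = 0.269, edgeR), and with KO mice 2, 4 and 7 summed all 3 RNA calls were lost. Tmem88b fell in RNA (-0.43, adjusted p = 0.0363, edgeR), rose in footprints (0.44, adjusted p = 0.00745) and rose in TE (0.87 ± 0.18, adjusted p = 0.00534). Its RNA call was lost in the exon columns (-0.034, adjusted p = 0.783), whereas its TE call was kept in 19 of 19 alternatives.

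**Figure D4:**
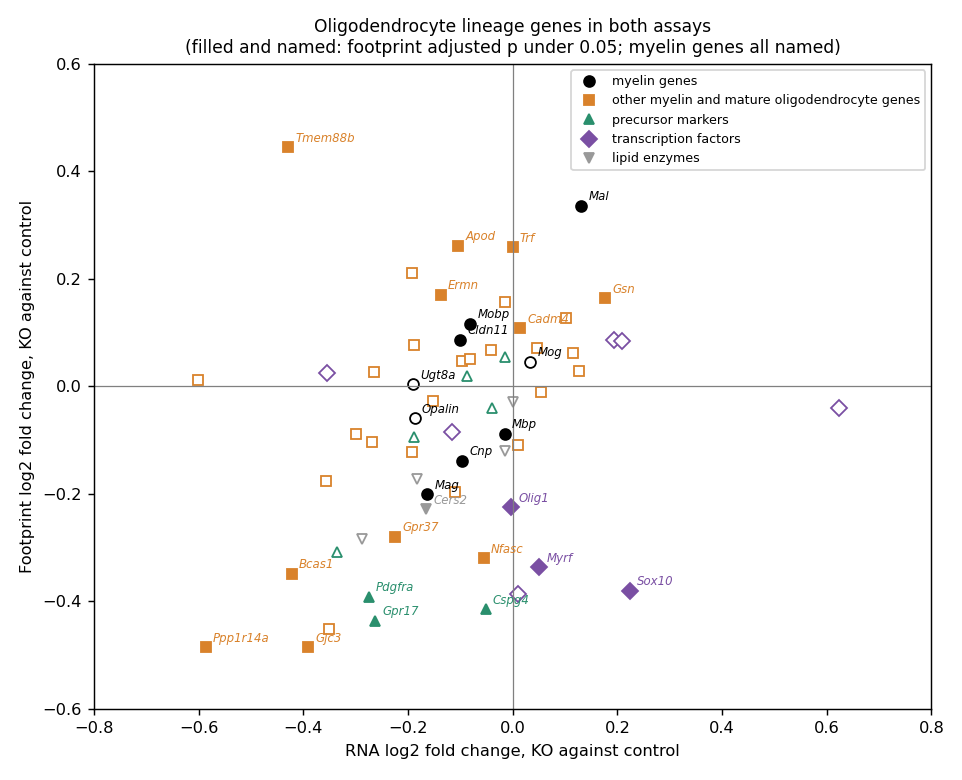
Log2 fold change, KO over control, in RNA (horizontal) and footprints (vertical) for genes of the oligodendrocyte lineage, coloured by list. All 8 precursor markers lie at negative values in RNA, as do 7 of the 9 members, and both sets lie on both sides of 0 in footprints.

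Markers of oligodendrocyte precursors, the cells that divide and mature into myelinating cells, were counted next. Of 8 precursor markers, all 8 had a negative RNA fold change, 1 being called, and in footprints 3 were called, all lower, where 13.7% of all genes were called lower. Neu4 (0.055) and Susd5 (0.020) were at positive values in footprints and were not called. The summed footprints of the list were at 468 to 471 CPM in controls and 357 to 376 CPM in KO. Pdgfra, the growth factor receptor of precursors, fell by 0.27 in RNA (log2; adjusted p = 0.0127, edgeR) and by 0.39 in footprints (adjusted p = 1.61e-09). Its RNA call was lost with KO mice 2, 4 and 7 summed, and its footprint call was kept in all 12 alternatives. Gpr17 footprints fell by 0.44 (adjusted p = 1.00e-10, edgeR) and Cspg4 footprints by 0.41 (adjusted p = 7.11e-07).

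Of 9 oligodendrocyte transcription factors, 3 were called in footprints, all lower, and none in RNA, where 3 had an unadjusted p under 0.05. The footprint count fell to 1 in one alternative, the joint fit of 14 libraries, and the share called lower over all genes was 13.7%. Sox10 footprints were at 65.4, 67.0 and 69.1 CPM in control mice 1, 3 and 9 and at 44.1, 55.1 and 55.3 CPM in KO mice 2, 4 and 10 (-0.38, adjusted p = 6.32e-05, edgeR). Its RNA was at 23.2 to 26.1 CPM in controls and 26.9 to 29.6 CPM in KO and was not called (0.22, adjusted p = 0.0823), and its TE fell by 0.61 ± 0.12 (log2, SE; adjusted p = 0.00195, edgeR). Myrf, which drives myelin genes, fell in footprints by 0.34 (adjusted p = 0.00274, edgeR) and Olig1 by 0.23 (adjusted p = 0.000449).

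Of 8 genes for proteins that bind, carry or signal to Mbp mRNA, 7 were tested in footprints, with 1 called higher and 4 lower. Hnrnpa2b1, which binds the transport element of Mbp mRNA, had footprints of 971, 918 and 871 CPM in control mice 1, 3 and 9 and 706, 685 and 681 CPM in KO mice 2, 4 and 10, a fall of 0.41 (log2; adjusted p = 2.18e-24, edgeR). Its RNA ranged from 129 to 248 CPM among controls. Of 5 other lipid enzymes, only Cers2, which makes very long chain ceramides, was called, with footprints lower by 0.23 (adjusted p = 0.00486, edgeR).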

How the data were processed

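RNA-seq (8 libraries) and ribosome profiling (6 libraries) of mouse cortex were analysed. The authors deposited whole-number counts per gene, not normalized. Bowtie2, STAR 2.5, featureCounts, Subread 1.4.6 and the builds mm9 and mm10 are named without role or order, per the submitters' processing notes. The region counted in the columns without the exon suffix is not given in the sources used here. Footprints and those RNA columns held values for 20563 genes. Spreadsheet dates replaced 27 gene names.

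RNA and footprint counts were each tested with edgeR 4.0.16 (R 4.3.3; quasi-likelihood F test, TMM, filterByExpr at a minimum count of 10), and TE as the interaction of genotype and assay over 14 libraries. P-values were two-sided, with Benjamini-Hochberg adjustment across every gene in the test, and genes under 0.05 are called. Standard errors came from the F statistic, and 95% intervals are the estimate ± 1.96 SE. CPM used TMM factors. The scripts were tested on simulated counts. Members and gene lists were chosen with earlier results of these data known. From each list, up to 4 called genes with the largest change and the most abundant gene were named (1 such gene is not reported here); the 6 genes most like the members had a mean of at least 5 CPM. Mice 1 to 4 gave both assays, which pairs their libraries by animal. DESeq2 1.42.0, plain library sizes, no filter, single libraries left out, blocks, the exon columns and subsets of mice were alternatives. A robust prior, and leaving out KO mouse 5 with control mouse 8, were chosen after seeing the data. P-values measure the spread between these mice. In the edgeR fits that spread is estimated partly from all genes of the fit, not from each gene alone.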

Additional observations from a re-analysis of the deposited data

Results flagged for a closer look

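Among 28 group values examined for 1 library far from the other 3, 5 were found, and chance gives about 1.4 (1 in 20). In KO mouse 5, Mbp RNA was at 592 CPM against 806 to 826 CPM in the other KO libraries. Mal RNA was at 182 CPM in the same library against 155 to 159 CPM in the others. The summed RNA of the 9 genes was 2549.9 CPM there, against 2630 to 2643 CPM. The summed choroid plexus markers were at 119.6 CPM in KO mouse 5, against 6.53 to 11.1 CPM in the other KO libraries, and at 281 CPM in control mouse 8, against 9.87 to 20.02 CPM in the other controls. The other KO libraries, of mice 2, 4 and 7, were unusually alike among the RNA libraries, which makes a gap to mouse 5 easier to reach. The part of choroid plexus RNA in the myelin values was not tested.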

How the results depend on the processing

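In RNA 1 member was called. None was called with no filter on low counts, the title prefix as a replicate block, KO mice 2, 4 and 7 summed (with or without control mice 1 and 3 summed), mice 5 to 8 only, or the robust prior. With mice 1 to 4 only, and with KO mouse 5 and control mouse 8 left out, 2 were called, where 24.2% and 22.6% of all genes were. Leaving out 1 library gave 0 to 1. In footprints 6 were called, against 2 in one fit over all 14 libraries and 4 to 6 with 1 library left out. In TE 0 were called, against 2 on plain library sizes and 3 with mouse as a replicate block in mice 1 to 4, and leaving out 1 library gave 0. Trf, chosen after its values were seen, reversed to 0.18 in RNA of mice 1 to 4 from about 0. Title prefixes paired the samples weakly at most. Same-prefix control and KO libraries correlated at -0.00136 to 0.031 in footprints and -0.0438 to 0.11 in RNA. Libraries of different prefixes correlated at -0.0952 to 0.0516 in RNA. The highest RNA values, 0.11, 0.107 and 0.0789, were all between same-prefix libraries. Over all genes, footprint calls were 3123, 1801 with DESeq2 and 1530 in one fit over 14 libraries; RNA calls were 1015, 85 with KO mice 2, 4 and 7 summed and 3284 with mice 1 to 4. Calls among the 32 other myelin genes ranged from 0 to 10 in RNA.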

Other observations

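The RNA profile closest to the mean of the 9 genes over the 8 RNA libraries was that of Arhgap10 (Pearson r = 0.985), then Pde5a (0.981), Beta-s (0.980), Slc30a7 (0.977), Dennd1b (0.971) and Arpc4 (0.960), among 11424 genes. These points share libraries and depth. Those 6 genes were chosen for the highest r. Among the 9 genes, the median r was 0.200 over 36 pairs, 16 of them negative.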
